A study of Arabidopsis thaliana with 14 samples.

Results

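The membrane transporter genes described here are 45 of the 1114 Arabidopsis thaliana genes that the authors listed as changed in seedlings of a fen1 mutant. They were chosen by the words of the short description in the authors' deposited table (transporter, major facilitator, MATE efflux, intrinsic protein, permease, MtN21, P-glycoprotein, antiporter or ATPase E1-E2), whatever the direction or size of their change, and were placed in 11 classes by substrate or, where none is named, by protein family. Whole seedlings of the C24 ecotype, 10 days old, were grown without treatment on MS plates with 20 g/L sucrose at 22 °C under 23 h of light, and the fen1 mutant was compared with a transgenic wild type (TWT). FEN1 encodes flap endonuclease 1, which trims the 5′ flaps left on DNA by replication and repair. RNA came from 2 libraries of each genotype, and chromatin immunoprecipitation from 1 TWT library each for H3K27me3, H3K4me3 and H3K9me2. The labels do not say which allele fen1 is or which transgene the TWT line carries.

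Plant transporters set which solutes enter a cell, leave it or are stored in its vacuole, and many of them load or unload the xylem and phloem that join root and shoot. Secondary transporters, such as the major facilitator and MATE proteins, use an ion gradient across the membrane, P-type ATPases and ABC transporters use ATP, and aquaporins (the intrinsic proteins) are channels for water and small neutral solutes. Many of these genes are known to respond to the supply of the nutrient they carry.

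Levels are given as FPKM (fragment counts divided by gene length and library size), which can be compared between genes, with 1 value per genotype that the authors combined over its libraries. No SD stands beside them, the overlap of single libraries cannot be shown, and the only test behind a call is the one the authors ran, with a q (adjusted p) under 0.05 for all 1114 genes. A log2 fold change is that of fen1 over TWT with no pseudocount. Whole seedlings were sampled, so fewer cells of a type and less RNA per cell cannot be told apart. The FEN1 transcript itself stood at 14.5 FPKM in TWT and 22.7 FPKM in fen1. Of the tissue markers looked up, those of seed (3 of 3 listed) had a summed level of 3.89 FPKM in TWT and 23.3 FPKM in fen1. Root epidermis and root hair markers (2 of 4 listed, EXPA7 and EXP18) summed to 11.0 and 23.5 FPKM, and none of 4 endodermis and 3 leaf mesophyll markers was listed. The part of these tissues in the transporter results was not tested.

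In fen1 seedlings 21 transporter genes rose and 24 fell. Calcium pumps, a mitochondrial phosphate carrier and genes of iron and zinc transport were among those that rose, and aquaporins, borate transporters and the nitrate transporter of xylem loading among those that fell. The authors' test covered 20132 genes, a number worked out from their p and q, and called 5.53% of them, 3.4% higher and 2.14% lower. At q under 0.01, 17 higher and 10 lower transporter genes were left, beside 2.48% and 1.23% of all tested genes. How many transporter genes were tested is not known, so a share of called transporters cannot be set beside these figures. Of the 1114 listed genes 61.4% were higher, against 46.7% of the transporter genes. This contrast depends on the threshold. At q under 0.01 most were higher in both sets, 17 against 10 for transporter genes and 499 against 248 for all genes. By the authors' deposited table the 21 higher transporter genes had a median log2 fold change of 0.84 and the 24 lower ones of −0.56, against 0.95 and −0.73 over all listed genes. Summed over the 45 genes, the level went from 1429 FPKM in TWT to 1244 FPKM in fen1.

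**Figure D1:**
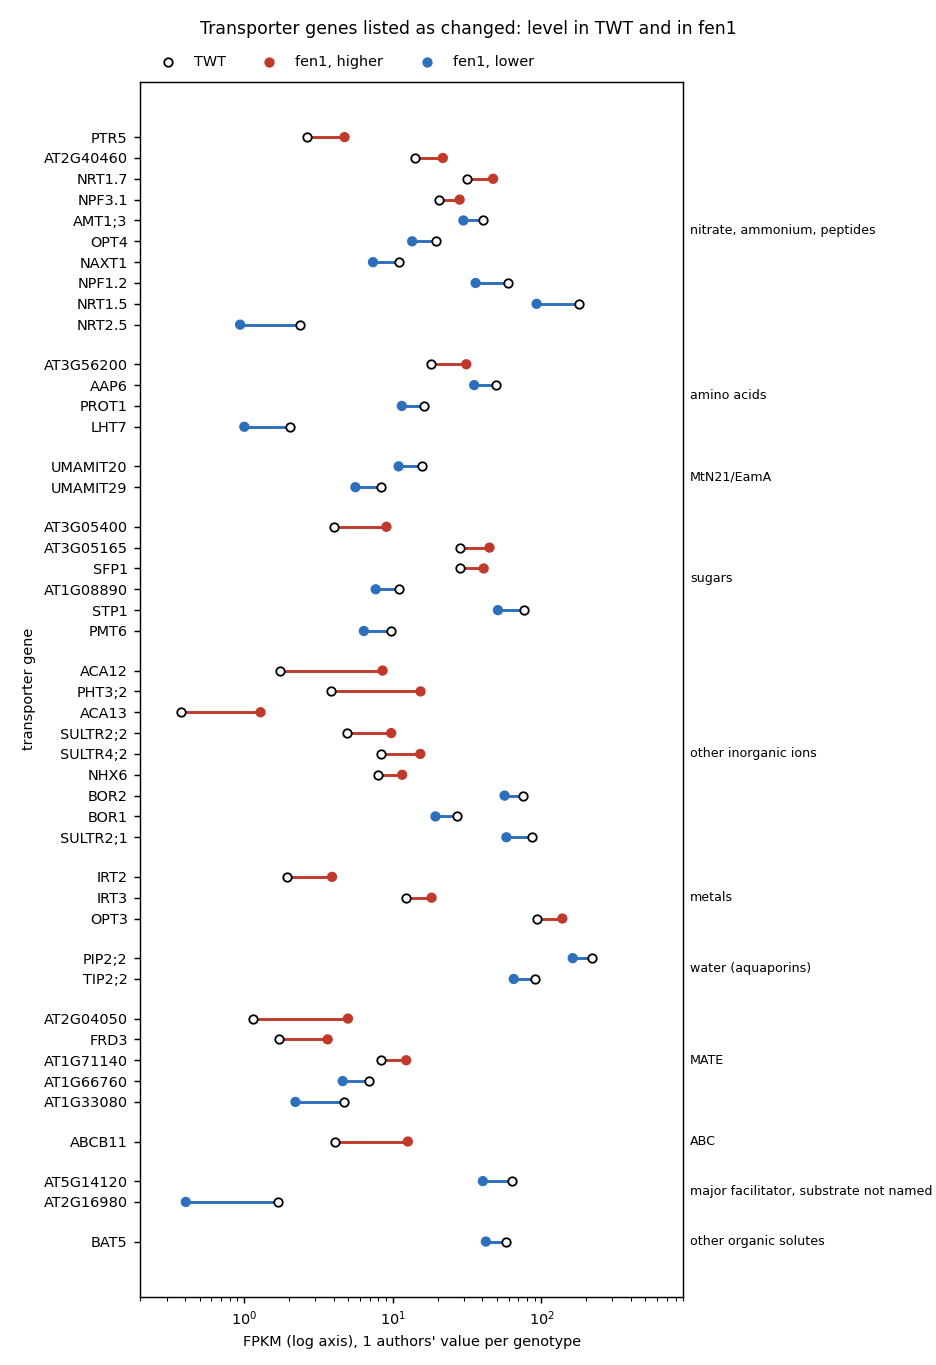
Levels of the 45 transporter genes (FPKM, log axis) in TWT (open points) and fen1 (filled points, red where higher and blue where lower), grouped by substrate class. There is 1 authors' value per genotype and no error bar can be drawn; the longest lines belong to genes under 5 FPKM in TWT, such as ACA12 and AT2G04050, while abundant genes such as PIP2;2 moved by less than 2-fold.

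The nitrogen class held 10 genes, for nitrate, ammonium and peptides, of which 6 fell and 4 rose. NRT1.5 (AT1G32450, chromosome 1, 11715150 to 11719970, TAIR10), which loads nitrate into the root xylem for the shoot, fell from 179.7 to 92.7 FPKM. The authors' deposited table gives a log2 fold change of −0.95 (q = 0.00173). NRT1.5 was the second most abundant of the 45 genes in TWT, and its drop in FPKM was the largest among them. The nitrate transporter gene NPF1.2, also known as NRT1.11, fell from 59.6 to 36.0 FPKM (log2 −0.73 and q = 0.00173 by the authors' deposited table). NRT2.5, a high-affinity nitrate transporter known from nitrogen-starved plants, fell from 2.39 to 0.94 FPKM, the steepest fall of the class on the log2 scale (log2 −1.35 and q = 0.00593 by the authors' deposited table). With log2(FPKM + 1) the change of NRT2.5 was −0.81, less than the −0.95 of NRT1.5. Levels were thus lower at both ends of the class, in its most and in its least abundant nitrate transporter. NAXT1, which releases nitrate from root cortex cells, went from 11.0 to 7.35 FPKM (log2 −0.59 and q = 0.00943 by the authors' deposited table). OPT4, an oligopeptide transporter, went from 19.4 to 13.5 FPKM and AMT1;3, a plasma membrane ammonium transporter, from 40.1 to 29.8 FPKM. The call of AMT1;3 lies close to the threshold in the authors' deposited table (q = 0.0483).

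Among the nitrogen genes that rose, NRT1.7 moves nitrate out of older leaves through the phloem. It went from 31.5 to 47.3 FPKM (log2 0.59 and q = 0.00173 by the authors' deposited table). The dipeptide transporter gene PTR5 rose from 2.64 to 4.73 FPKM, the largest rise of the class on the log2 scale and the smallest in FPKM (log2 0.84 and q = 0.0083 by the authors' deposited table). NPF3.1 rose from 20.5 to 28.1 FPKM, and AT2G40460, annotated for oligopeptide transport, from 14.2 to 21.7 FPKM. None of these 4 rises reached 2-fold. Summed over the 10 genes, the level went from 381 to 282 FPKM, and NRT1.5 alone made up most of that difference.

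Amino acid transporters mostly fell, 3 of 4, as did both genes of the MtN21/EamA family. AAP6, an amino acid permease of the xylem region, went from 49.6 to 35.2 FPKM (log2 −0.49 and q = 0.00943 by the authors' deposited table). PROT1, a phloem transporter of proline and glycine betaine, went from 16.3 to 11.5 FPKM (log2 −0.51 and q = 0.0261 by the authors' deposited table). LHT7 had the steepest fall of the class, from 2.04 to 1.00 FPKM (log2 −1.03 and q = 0.0406 by the authors' deposited table). With log2(FPKM + 1) the change of LHT7 was −0.61. The putative amino acid transporter gene AT3G56200 went the other way, from 18.0 to 31.2 FPKM (log2 0.80 and q = 0.00173 by the authors' deposited table). Members of the MtN21/EamA family are known as exporters of amino acids and of other solutes. UMAMIT20 fell from 15.6 to 10.9 FPKM and UMAMIT29 from 8.30 to 5.60 FPKM, where the authors' deposited table gives q of 0.0369 and 0.0461, near the threshold.

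Sugar and polyol transporters were split, with 3 higher and 3 lower, and their summed level hardly differed, at 157 FPKM in TWT and 159.5 FPKM in fen1. STP1, the plasma membrane hexose-proton symporter, fell from 76.0 to 50.9 FPKM (log2 −0.58 and q = 0.00173 by the authors' deposited table). PMT6, a polyol transporter gene, fell from 9.67 to 6.38 FPKM (log2 −0.60 and q = 0.0127 by the authors' deposited table), and AT1G08890 from 11.0 to 7.67 FPKM. SFP1, known for its induction in senescing leaves, rose from 28.2 to 40.8 FPKM (log2 0.54 and q = 0.00462 by the authors' deposited table). AT3G05400, whose best protein match in the authors' annotation is SFP1, rose from 4.00 to 9.05 FPKM (log2 1.18 and q = 0.00173 by the authors' deposited table). Another major facilitator gene, AT3G05165, went from 28.2 to 44.7 FPKM (log2 0.66 by the authors' deposited table).

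Of 9 transporters of other inorganic ions 6 rose and 3 fell, and 3 of the 4 largest rises on the log2 scale among the 45 genes were in this class. ACA12 and ACA13 belong by name to the autoinhibited calcium pumps, P-type ATPases that export calcium. ACA12 (AT3G63380, chromosome 3, 23406611 to 23410360, TAIR10) rose from 1.75 to 8.53 FPKM, the largest log2 fold change of the 45 genes in the authors' deposited table (2.28, q = 0.00173). ACA13 (AT3G22910) rose from 0.37 to 1.29 FPKM (log2 1.79 and q = 0.00173 by the authors' deposited table). It was the least abundant transporter gene in TWT, and with log2(FPKM + 1) its change was 0.74. PHT3;2, a phosphate carrier of the inner mitochondrial membrane, rose from 3.82 to 15.4 FPKM (log2 2.01 and q = 0.00173 by the authors' deposited table). NHX6, an endosomal sodium or potassium/proton antiporter, rose less, from 7.88 to 11.5 FPKM (log2 0.55 and q = 0.0199 by the authors' deposited table).

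The sulfate transporters moved in both directions. SULTR2;1, a low-affinity transporter of the vascular tissue that carries sulfate from root to shoot, fell from 85.7 to 58.1 FPKM (log2 −0.56 and q = 0.00173 by the authors' deposited table). Its closest relative SULTR2;2 rose from 4.95 to 9.75 FPKM (log2 0.98 and q = 0.00173 by the authors' deposited table). SULTR4;2, which empties sulfate from the vacuole and is induced by sulfate shortage, rose from 8.28 to 15.3 FPKM (log2 0.89 and q = 0.00173 by the authors' deposited table). Despite these changes SULTR2;1 stayed the most abundant of the 3 in fen1. Both borate transporter genes fell. BOR1, which loads boron into the xylem, went from 27.1 to 19.4 FPKM (log2 −0.49 and q = 0.017 by the authors' deposited table) and BOR2 from 74.9 to 56.4 FPKM (log2 −0.41, q = 0.0455).

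All 3 genes of the metal class rose. OPT3 belongs by name to the oligopeptide transporters but is known to load iron into the phloem, and it was placed here for its annotated role in metal homeostasis. It rose from 93.7 to 138.1 FPKM (log2 0.56 and q = 0.00462 by the authors' deposited table), the largest gain in FPKM among the 45 genes. IRT2, an iron transporter of the outer cell layers of the root, rose from 1.95 to 3.90 FPKM (log2 1.00 and q = 0.018 by the authors' deposited table). IRT3, a zinc and iron transporter of the plasma membrane, rose from 12.3 to 18.2 FPKM (log2 0.57 and q = 0.00943 by the authors' deposited table). FRD3, counted among the MATE proteins, exports citrate into the xylem, where it keeps iron mobile. It rose from 1.71 to 3.64 FPKM (log2 1.09 and q = 0.00322 by the authors' deposited table). IRT1, the main iron uptake transporter of the root and the best match of IRT2, was not listed. Metal transporters outside the 45 genes moved in both directions, with NRAMP1 and YSL1 among those that fell.

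Both aquaporins that the word rule reaches fell by a similar factor. PIP2;2 (AT2G37170, chromosome 2, 15613402 to 15614857, TAIR10), a water channel of the plasma membrane, was the most abundant transporter gene in both genotypes, at 218 FPKM in TWT and 162 FPKM in fen1. Its log2 fold change was −0.43 in the authors' deposited table (q = 0.0327). TIP2;2, a water channel of the vacuole membrane, went from 90.2 to 65.0 FPKM (log2 −0.47 and q = 0.0226 by the authors' deposited table). Neither call passes a q of 0.01. SIP1;2, a small intrinsic protein of the endoplasmic reticulum that the word rule does not reach, rose from 7.68 to 13.9 FPKM (log2 0.86 and q = 0.00173 by the authors' deposited table).

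The remaining classes held 9 genes. Of 5 genes of the MATE family, which export organic acids, alkaloids and other compounds, 3 rose and 2 fell. AT2G04050 rose most, from 1.15 to 4.98 FPKM (log2 2.12 and q = 0.00173 by the authors' deposited table), and AT1G33080 fell most, from 4.67 to 2.21 FPKM (log2 −1.08, q = 0.00173). AT1G71140 rose from 8.34 to 12.3 FPKM and AT1G66760 fell from 6.93 to 4.6 FPKM, for which the authors' deposited table gives q of 0.0199 and 0.031. The 1 ABC transporter among the 45, ABCB11, rose from 4.09 to 12.6 FPKM (log2 1.62 and q = 0.00173 by the authors' deposited table). Of the major facilitators without a named substrate, AT2G16980 had the steepest fall of all 45, from 1.68 to 0.40 FPKM (log2 −2.05 and q = 0.0117 by the authors' deposited table; −0.93 with log2(FPKM + 1)). AT5G14120 fell from 63.2 to 40.3 FPKM (log2 −0.65 and q = 0.00173 by the authors' deposited table). BAT5, which moves 2-keto acids across the chloroplast envelope for the synthesis of methionine-derived glucosinolates, fell from 58.1 to 42.2 FPKM (log2 −0.46 and q = 0.0319 by the authors' deposited table).

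**Figure D2:**
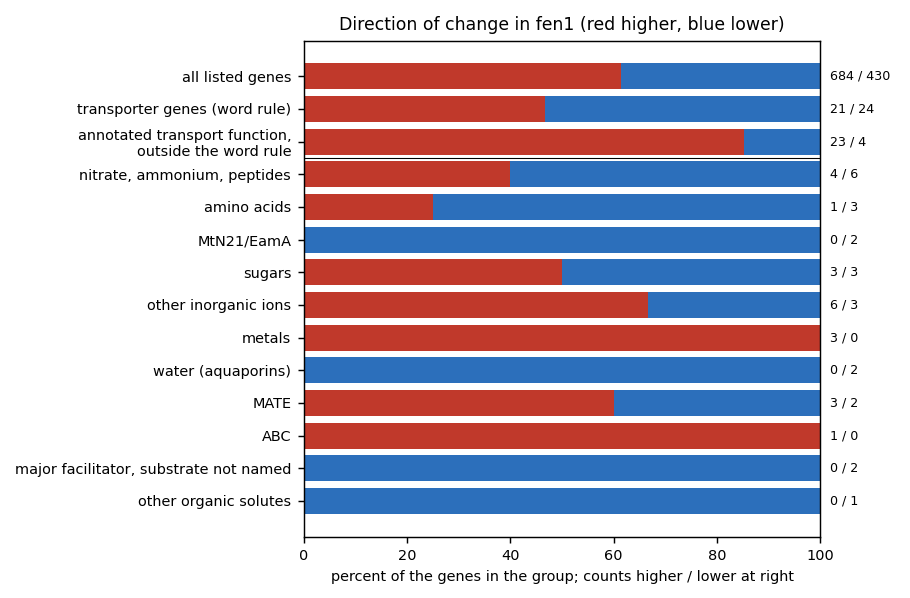
Percent of genes higher (red) and lower (blue) in fen1 for all listed genes, the 45 transporter genes, 27 listed genes outside the word rule whose longer annotation names a transport function, and each class; counts higher / lower stand at the right. The metal class was higher in 3 of 3 genes and the aquaporins lower in 2 of 2, while sugars were split 3 to 3; most classes hold too few genes for their percent to be read closely.

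Large fold changes were those of genes with a low level. A change of at least 2-fold was seen in 8 higher and 4 lower transporter genes, all of them under 10 FPKM in TWT and also in the mean of both genotypes. None of the 25 genes at 10 FPKM or more in TWT changed so much. Over all tested genes 1.61% were called higher and 0.656% lower at that size. Of the 578 listed genes at 10 FPKM or more in TWT, 63 higher and 56 lower ones changed at least 2-fold. Direction showed no such relation that held whichever genotype set the level. By the TWT level, 8 of 25 transporter genes at 10 FPKM or more were higher (32%) and 13 of 20 below it (65%). All listed genes split the same way, with 46.2% and 77.8% higher. A low TWT value itself favours a rise. By the fen1 level, a split added after the data were seen, the counts were 13 of 28 (46.4%) and 8 of 17 (47.1%). Over all listed genes the shares were 63.8% and 58.1%. By the mean of both genotypes the counts were 10 of 25 (40%) and 11 of 20 (55%), against 55.7% and 69% over all listed genes. Small changes of low genes may have gone unlisted, since fewer reads call for a larger change.

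**Figure D3:**
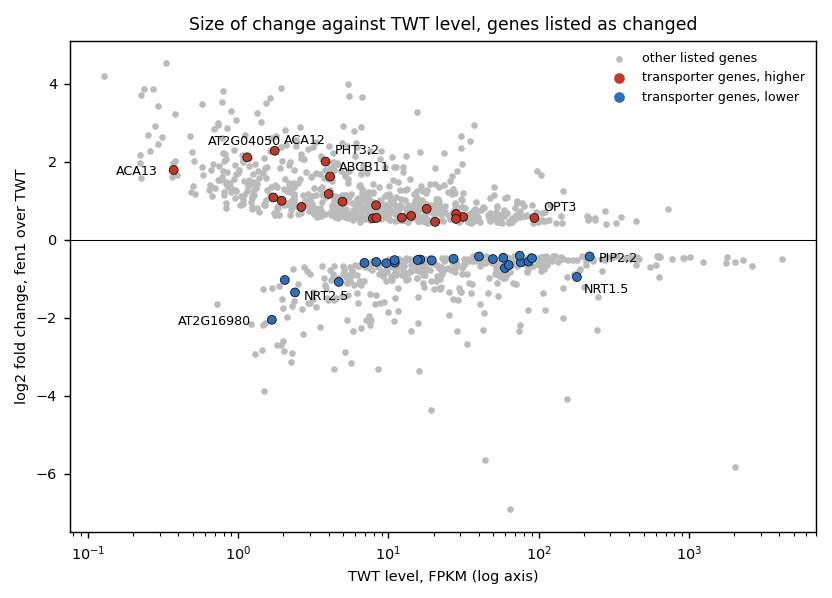
Log2 fold change (fen1 over TWT, no pseudocount) against the TWT level (FPKM, log axis) for the 45 transporter genes (red higher, blue lower) and the other listed genes above 0 in both genotypes (grey). The rises of 2-fold or more, such as ACA12 at 2.28 and PHT3;2 at 2.01, lie under 10 FPKM, and the abundant genes NRT1.5, PIP2;2 and OPT3 all lie within 1 log2 unit of 0.

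The authors' annotation names for each of the 45 genes its best protein match in Arabidopsis, and for 7 that match was itself listed. Among these are 3 pairs of mutual best matches, all within the inorganic ion class. ACA12 and ACA13 both rose, BOR1 and BOR2 both fell, and SULTR2;1 and SULTR2;2 went in opposite directions. The pair of sulfate transporters thereby drew closer in level, from 85.7 and 4.95 FPKM in TWT to 58.1 and 9.75 FPKM in fen1. For 12 genes the best match is a gene within 20 kb, as for ABCB11 (ABCB12), IRT2 (IRT1), PIP2;2 (RD28), AMT1;3 (AMT1;5), SFP1 (SFP2) and NAXT1 (AT3G45660), and none of those neighbours was listed. The labels and headers do not say how reads shared by such copies were counted, and the levels of these 12 genes are less certain for it. A further source of doubt is the overlap with another annotated gene, found in the reference for 8 members, among them NRT1.5, STP1, SULTR2;2, SULTR4;2 and LHT7, since they do not say how strand was handled either.

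Families were counted by name in the reference, which can leave out members. Of all tested genes 5.53% were listed, and in most of the families counted 1 listed gene already gives a larger share. How many genes of each family were tested is not known, so these shares cannot be read closely. The largest were those of genes named IRT (2 of 3, both higher) and BOR (2 of 4, both lower). PHT3 (1 of 3, higher) and ProT (1 of 3, lower) came next. The IRT name may not cover a whole family, since the best match of IRT3 is ZIP4, which was not listed. Of the genes that the reference names by the family, 1 of 13 PIP and 1 of 9 TIP aquaporins was listed, 1 of 7 NRT2 nitrate transporters, 1 of 6 AMT ammonium transporters, 2 of 44 UMAMIT genes and 1 of 10 STP hexose transporters. Of the genes named for the NRT1/PTR family 6 of 27 were listed, 3 in each direction, and of those named SULTR 3 of 12. The count by name leaves out AT2G40460, which rose and whose best match is PTR3. None of 9 PHT1 phosphate uptake genes and none of 9 SUC sucrose transporter genes was listed. Of 17 SWEET sugar transporters, which the word rule does not reach, SWEET1 was higher (log2 0.70 by the authors' deposited table) and SWEET11 lower (log2 −0.51). Absence from the table does not tell an unchanged gene from one too low for the test.

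The words used to find the members left out other transporters. The longer annotation names a transport function for a further 27 listed genes, of which 23 were higher (85.2%), and 9 more were found by reading the descriptions, of which 5 were higher. The 4 lower ones of the 27 include PATL1 and AT2G16380, a phosphatidylinositol transfer protein, so the longer annotation reaches beyond membrane transporters. NRAMP1, NRAMP3 and the auxin efflux carrier gene AT5G65980, which the member rule bars, are counted here as well. Both searches were made after the data were seen, and neither can be taken as complete. They include CHX17, a cation/proton exchanger, from 4.26 to 17.0 FPKM (log2 1.99 by the authors' deposited table). They also include 3 glutamate receptor channels (GLR1.3, ATGLR1.2 and GLR2.5, log2 1.79, 1.74 and 1.62 by the authors' deposited table) and the calcium exchanger CAX7 (log2 1.35). Metal transporters moved in both directions. YSL2, HMA2, HMA5, NRAMP3 and NRAMP4 were higher (log2 0.69, 0.77, 0.74, 0.72 and 0.54 by the authors' deposited table). YSL1 fell from 11.2 to 6.31 FPKM and NRAMP1 from 85.2 to 61.1 FPKM (log2 −0.82 and −0.48 by the authors' deposited table). The cation exchanger CAX3 and the proton pump AHA7 were higher (log2 1.02 and 1.07 by the authors' deposited table), and the ion channel CNGC2 lower (log2 −0.43). ZIF1 and ZIFL1, major facilitators known for zinc tolerance, rose from 21.6 to 35.5 and from 21.4 to 44.2 FPKM. Of the genes with ABC names outside the word rule, ABCA7, ABCB4, ABCC3, ABCC6, ABCC7, ABCC10 and ABCG37 were higher and ABCG24 and ABCI8 lower. Whether each of them, ABCI8 among them, encodes a membrane transporter was not checked. With the 27 genes added, 44 of 72 were higher (61.1%), and with all 36, 49 of 81 (60.5%), against 46.7% of the 45 genes alone. The split by direction thus changes with the words that define a transporter, and it also changes with the q threshold.

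In TWT chromatin the transporter genes carried the marks about as often as other listed genes. A peak of H3K4me3, the mark of active promoters, overlapped 25 of 45 (55.6%, exact Clopper-Pearson 95% interval 40 to 70.4%), against 53.8% of all listed genes. H3K27me3, the mark of Polycomb silencing, was on 19 (42.2%, 27.7 to 57.8%), against 37%. H3K9me2, the mark of silent heterochromatin, was on 3 (6.67%, 1.4 to 18.3%), against 2.78%, and 4 genes had no peak (AT3G05400, BAT5, PROT1 and PTR5). The intervals cover counting error only, and each list comes from 1 TWT library. Chromatin libraries of fen1 were not analysed here, and the marks are described for TWT alone. Higher and lower members were close to each other, with H3K4me3 on 11 of 21 and 14 of 24 and H3K27me3 on 9 of 21 and 10 of 24. All listed genes differed more by direction, with H3K4me3 on 46.8% of higher and 64.9% of lower ones. The shares with H3K27me3 were 39.8% and 32.6%. Without peaks below the first quartile of score, H3K4me3 was on 33.3% of higher and 45.8% of lower members.

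Among the members that rose, the marks divided with the TWT level. All 11 higher genes at 5 FPKM or more in TWT carried H3K4me3, from NHX6 at 7.88 to OPT3 at 93.7 FPKM, and none of the 10 below 5 FPKM did. The peaks on 4 of the 11 (NRT1.7, NPF3.1, AT1G71140 and AT2G40460) have scores of 110, 162, 166 and 258, below the first quartile of 566 over the list, and without such peaks 7 of 11 carried the mark. Of those 10, 7 carried H3K27me3 (70%), and below 5 FPKM 51.7% of all listed higher genes did. Among the 7 were IRT2, ACA12, ACA13 and AT2G04050. Their gene bodies lay under such peaks for 100%, 96.3%, 98.2% and 97.8% of their length. Over all listed higher genes the shares with H3K4me3 were 59.8% at 5 FPKM or more and 28.8% below, and this level was chosen after the values were seen. The members that fell were less clearly divided. H3K4me3 was on 13 of the 20 at 5 FPKM or more (65%) and on 1 of 4 below (25%), NRT2.5. Among all listed lower genes the shares were 71.4% and 25%, a wider split than among all listed higher genes. Several abundant genes that fell had H3K27me3 and no H3K4me3 peak, as did NRT1.5 at 179.7 FPKM, SULTR2;1 at 85.7 FPKM and NPF1.2 at 59.6 FPKM in TWT. On NRT1.5 the peak covered 18.6% of the gene and had a low score of 73.1 (the authors' own value, with a median of 125 over the list). The gene bodies of AAP6, AMT1;3, NRT1.7 and AT1G71140 were overlapped by peaks of both H3K27me3 and H3K4me3. Both marks covered the gene start on AMT1;3 and AT1G71140. On AAP6 and NRT1.7 only H3K4me3 covered it, and whether the peaks meet there was not examined.

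**Figure D4:**
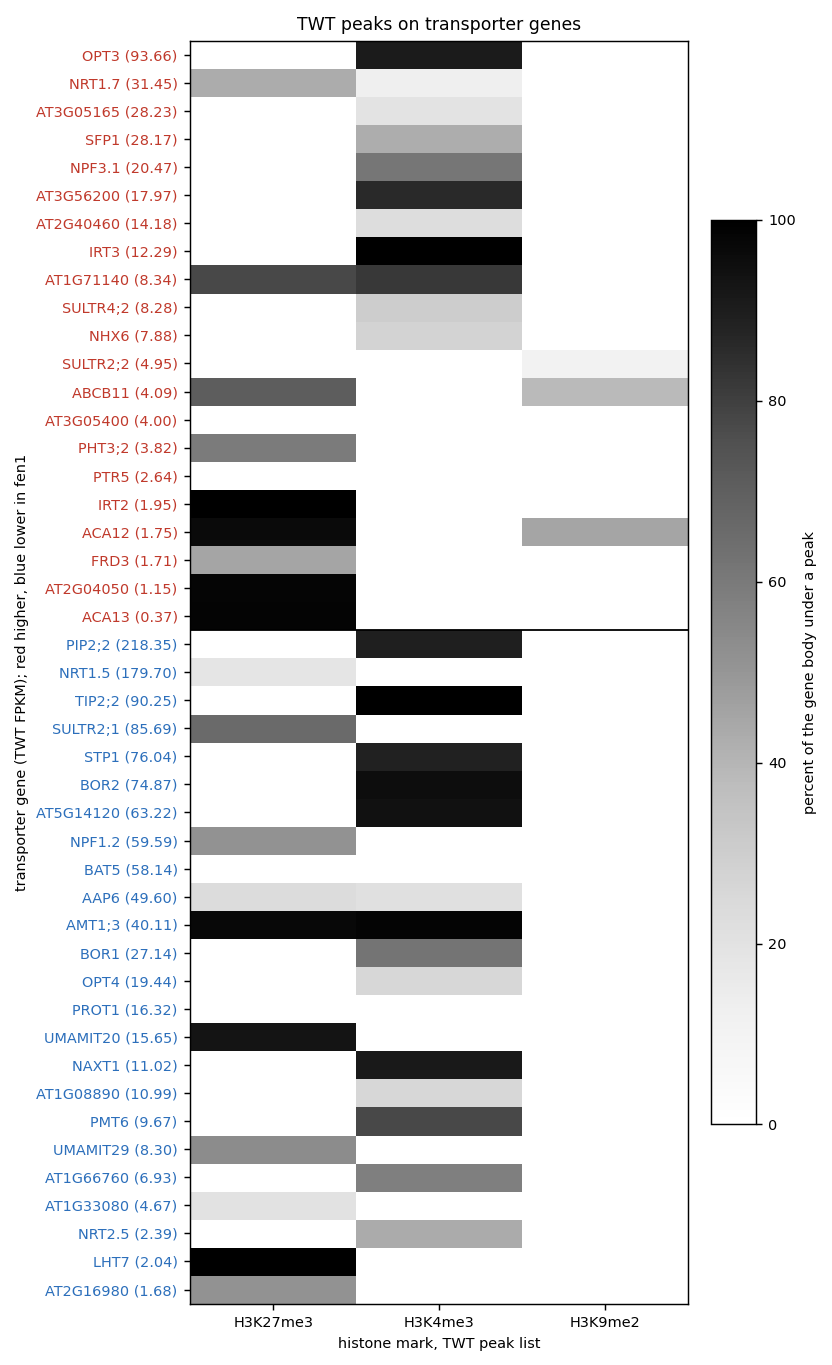
Percent of each gene body (grey scale) under a TWT peak of H3K27me3, H3K4me3 or H3K9me2, for the 21 transporter genes higher in fen1 (red names, above the line) and the 24 lower ones (blue names), each set ordered by TWT FPKM, which stands beside the name. In the upper block every gene down to NHX6 at 7.88 FPKM has some H3K4me3 cover, from 13% on NRT1.7 to 100% on IRT3. The column is empty below NHX6. In the lower block the marks are mixed along the whole range.

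Peaks also differed in where they lay. The annotated start of the gene was under the peak in 23 of the 25 members with H3K4me3, in 9 of the 19 with H3K27me3 and in none of the 3 with H3K9me2. The H3K9me2 peaks lay on ABCB11, ACA12 and SULTR2;2, all higher in fen1, with scores of 62.7, 73.6 and 92.2. These are low for a list whose median is 235, and all 3 lie below its first quartile of 105. ABCB11 and ACA12 carried H3K27me3 as well, on 70.4% and 96.3% of the gene, while SULTR2;2 had no other mark.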

How the data were processed

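The labels give 4 RNA libraries (2 per genotype) and 10 ChIP or input libraries; grouping followed the titles. Per the submitters' processing notes the tools included TopHat2 2.1.1, Cuffdiff 2.1.1, Bowtie 0.12.9 and SAMtools, with TAIR10 as the build; roles and order are not stated. The deposited RNA table has the layout of Cuffdiff output, so its values were read as FPKM, scaled by the authors to length and depth with 1 value per genotype; the header names no unit. The deposited log2 fold changes differ from those recomputed from FPKM by at most 1.17e-05. The lowest p-value that the authors deposited, 5e-05, is shared by 18 members and gives their q of 0.00173. The q times the rank over the p gave 20132 tests. Peak scores are the authors' deposited values; peak names point to MACS, whose settings no source states. The fen1 ChIP, H3 and input libraries were not analysed here.

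The word rule found 45 genes. The 4 metal genes and the rows with auxin that it bars did not match its words, so no gene was removed. Classes followed the substrate named in the description or, where it names none, as for most major facilitators, textbook knowledge of the gene, which also placed OPT3; the rule for values names up to 4 higher and 4 lower genes per class, and the rest are given in short. Members, classes and lists were chosen with earlier results of these data known. No test was added, because the table has 1 value per genotype, and precision by depth is unknown. The labels do not say that the 2 libraries are separate cultures, so p-values may measure technical spread alone. A mark was counted where a peak overlapped the gene body by at least 1 bp. Names came from a TAIR10.1 reference table, with all 45 members matched, and from it only names, neighbours and overlaps were taken. No nucleotide or protein sequences were used, and the planned motif search was not made. The planned count of reference genes by description was replaced by a count by family name. Functions were tested on simulated data, with Python 3.11.15, pandas 2.3.3, numpy 2.4.6 and scipy 1.17.1.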

Additional observations from a re-analysis of the deposited data

How the results depend on the processing

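With log2(FPKM + 1) and log2(FPKM + 0.1), which cannot change a direction, the median of higher genes was 0.73 and 0.82 and that of lower genes −0.50 and −0.56. At q under 0.01, 10 lower genes were left, with 17 higher. Lower genes then numbered 1 for amino acids, sugars, other ions, MATE and major facilitators without a substrate, and 0 for water, MtN21/EamA and other organic solutes. At 2-fold or more, 8 higher and 4 lower genes were left, with 3 higher for other ions, 1 each for metals and sugars and 0 for nitrogen and amino acids. Lower genes were then 1 each for nitrogen, amino acids, MATE and major facilitators and 0 for water, sugars, other ions, MtN21/EamA and other organic solutes. By family alone, major facilitators held 5 higher and 5 lower genes, sugars 0 and 1, and nitrogen 2 higher, since genes moved between classes. Widening the word rule, chosen after seeing the data, gave 44 higher and 28 lower genes, and 49 and 32 with those found by reading. Without the peaks below the first quartile of score, 0% had H3K9me2, of all and of higher members, and H3K4me3 on higher members went from 52.4% to 33.3%. A minimum of 1 FPKM, the rule without its exclusions and a 300 bp overlap changed no count or share. With a minimum of 5 FPKM, 16 higher and 20 lower genes were left. Leaving out genes with a near copy (chosen after seeing the data) left 16 higher and 17 lower. With 1000 bp upstream, H3K4me3 was on 60% of all and 61.9% of higher members, and the other shares stayed the same. Leaving out a library could not be run, and depth is unknown. No paired analysis was possible because the table holds 1 combined value per genotype.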
